A study of Arabidopsis thaliana with 6 samples.

Results

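Reads over introns were compared between the cao mutant, which carries the *brr2a*-2 allele, and the wild type Col, and 1074 introns that gained reads in *brr2a*-2 are described here. They were selected on the counts themselves. An intron was taken when its summed count over the 3 *brr2a*-2 libraries was at least 20 and at least 3 times its sum over the 3 Col libraries, its Col sum was under 5% of the Col count of its gene, the gene had at least 100 counts in Col, and the gene's own *brr2a*-2 sum was at most 1.5 times its Col sum. Only genes on chromosomes 1, 2, 4 and 5 with 2 to 14 introns in the table were considered. Of 117457 introns in the table, 13933 met every condition apart from the fold, and the 1074 that also met the fold, which is 7.71% of them, lay in 835 genes. Because the fold itself chose these introns, their ratios are given as a description and no test is drawn from them.

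Total RNA from which ribosomal RNA had been removed was sequenced from 15-day-old Arabidopsis thaliana plants grown in short days and harvested 1 h before dark. Both genotypes are in the Col-0 ecotype, and there were 3 libraries of *brr2a*-2 and 3 of Col. *brr2a*-2 is a single allele, induced by chemical mutagenesis and backcrossed to Col, which the study describes as recessive and as likely of reduced function. It exchanges 1 amino acid, so that read counts per gene cannot check the genotype. The labels name rosette leaves as the tissue, whereas the study's methods name seedlings. No source says that libraries with the same number belong together, and the labels call the 3 libraries of a genotype biological replicates without naming plants.

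Introns are removed from the primary transcript by the spliceosome, which recognises the 5′ splice site, the branch point and the 3′ splice site and is rebuilt on every intron. BRR2 is the RNA helicase of the U5 small nuclear ribonucleoprotein that unwinds the U4 and U6 RNAs from each other when the spliceosome is activated. An intron left in a transcript often brings a stop codon into the reading frame, and such transcripts may be degraded or kept in the nucleus.

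Sequences of introns from 6 host genes are shown first, because in each of these genes an intron that gained reads lay beside introns that did not meet the rule. Introns are numbered along the transcript, positions are on TAIR10.1, and the sequences were read 5′ to 3′ on the strand of the gene from the RefSeq genome of that build. Capitals mark the first 6 and the last 3 bases of the intron, which carry the intronic part of the splice sites. The first set shows AT1G59990, which encodes a DEAD-box RNA helicase, where intron 7 met the rule (chr1:22090419-22090491, minus strand) and intron 6 did not meet it (chr1:22090544-22090674, minus strand), and AT1G24360, which encodes a protein with a Rossmann fold, where intron 6 met the rule (chr1:8642315-8642389, plus strand) and intron 5 did not meet it (chr1:8642152-8642219, plus strand). Both of these neighbours also passed the 3-fold limit, but had fewer than 20 counts in *brr2a*-2 and were left out on that floor alone.
AT1G59990 intron 7, gaining reads: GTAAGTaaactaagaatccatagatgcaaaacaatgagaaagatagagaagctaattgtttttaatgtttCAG
AT1G59990 intron 6: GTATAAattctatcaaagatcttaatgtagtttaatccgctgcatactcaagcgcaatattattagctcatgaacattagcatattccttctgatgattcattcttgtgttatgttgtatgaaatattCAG
AT1G24360 intron 6, gaining reads: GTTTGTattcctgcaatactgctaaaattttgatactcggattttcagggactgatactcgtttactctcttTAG
AT1G24360 intron 5: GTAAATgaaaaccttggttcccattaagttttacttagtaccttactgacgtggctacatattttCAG

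The second set shows 3 genes of photosynthesis and photorespiration, and an intron of *FBP*. In *LHCB3*, which encodes a light-harvesting protein of photosystem II, intron 2 met the rule (chr5:22038810-22038873, plus strand) and intron 1 did not meet it (chr5:22038550-22038647, plus strand). In *GAPB*, which encodes a subunit of the chloroplast glyceraldehyde-3-phosphate dehydrogenase, intron 3 met the rule (chr1:16128084-16128152, plus strand) and intron 4 did not meet it (chr1:16128321-16128411, plus strand). In *GGT1*, which encodes the glutamate:glyoxylate aminotransferase of photorespiration, intron 11 met the rule (chr1:8269278-8269355, minus strand) and intron 10 did not meet it (chr1:8269421-8269503, minus strand). The sums of these 3 neighbours were also higher in *brr2a*-2, at ratios of 2.54, 2.53 and 2.20 that lie below the 3-fold limit. Intron 2 of *FBP* (chr1:16468613-16468680, plus strand), a fructose-1,6-bisphosphatase gene, is 1 of 5 introns gaining reads that begin with GC in place of GT.
LHCB3 intron 2, gaining reads: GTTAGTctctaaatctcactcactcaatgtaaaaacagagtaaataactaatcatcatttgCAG
LHCB3 intron 1: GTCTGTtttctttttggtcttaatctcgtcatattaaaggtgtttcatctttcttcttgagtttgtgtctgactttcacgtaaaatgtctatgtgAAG
GAPB intron 3, gaining reads: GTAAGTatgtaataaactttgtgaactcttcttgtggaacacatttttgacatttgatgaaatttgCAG
GAPB intron 4: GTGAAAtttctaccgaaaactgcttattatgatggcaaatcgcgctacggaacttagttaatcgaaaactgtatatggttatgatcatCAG
GGT1 intron 11, gaining reads: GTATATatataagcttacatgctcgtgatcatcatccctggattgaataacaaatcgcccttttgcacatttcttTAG
GGT1 intron 10: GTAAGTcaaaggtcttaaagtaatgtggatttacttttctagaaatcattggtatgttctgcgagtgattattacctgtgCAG
FBP intron 2, gaining reads: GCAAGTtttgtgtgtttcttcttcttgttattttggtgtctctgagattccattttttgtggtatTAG

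Library totals ranged over 18692830 to 23184873 gene counts in *brr2a*-2 and 19468030 to 29830638 in Col, and over 739835 to 1044438 intron counts in *brr2a*-2 and 561146 to 1065088 in Col. Levels are given as CPM, which here means counts per 1000000 gene counts of the same library. The leaf genes of the RuBisCO small subunit and the light-harvesting antenna were abundant in all 6 libraries, but the first Col library stood apart with 11490 CPM over the antenna genes, against 19180 to 23140 in *brr2a*-2 and 22740 and 30560 in the other Col libraries. The *BRR2a* gene itself had 145, 172 and 168 CPM in the *brr2a*-2 libraries and 174, 126 and 130 in the Col libraries, so that the genotypes overlapped. In whole tissue, fewer cells of a type and less RNA per cell cannot be told apart.

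Summed over all 1074 introns, the *brr2a*-2 libraries held 1283, 1232 and 889 CPM and the Col libraries 193, 324 and 286. The means were 1135 ± 214 in *brr2a*-2 and 268 ± 67.5 in Col (SD, n = 3 each), a ratio of 4.24 that the rule required in part. The first Col library was the lowest for these introns. It was the highest Col library for introns that met every other condition but lay below the fold, with 8477 CPM against 6985 and 7207. Over all introns it was also the highest, with 35700 against 27610 and 28820. Without it, and with the Col sums scaled to 3 libraries, the same rule would have taken 1978 introns, of which 771 are among the 1074. The part that the low antenna level of that library has in this was not tested. The 5227 other introns of the same genes held 4007, 3703 and 3219 CPM in *brr2a*-2 and 2194, 2125 and 2302 in Col. The rule put no floor or fold on these introns, and here too every *brr2a*-2 library lay above every Col library, with a ratio of 1.65. Introns that met every other condition but lay below the fold, and all introns of the table together, were also higher in *brr2a*-2, by 1.55 and 1.38 times. Counts of the host genes as such were 64350, 66270 and 57050 CPM in *brr2a*-2 and 47830, 63510 and 54850 in Col, and overlapped.

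**Figure D1:**
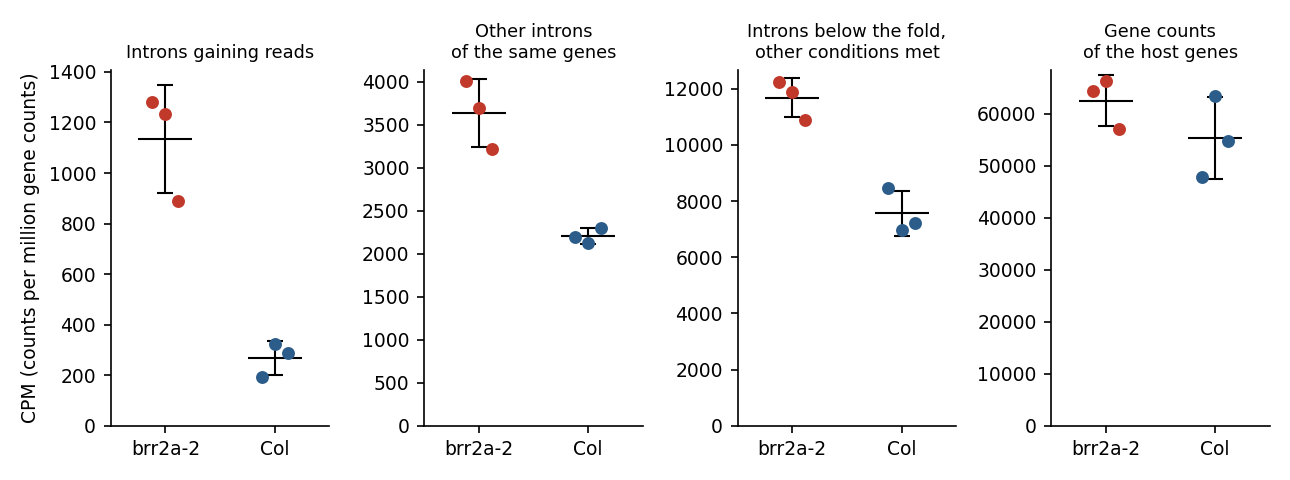
Summed CPM (counts relative to the gene counts of the library) in each *brr2a*-2 library (red) and each Col library (blue), for the introns gaining reads, for the other introns of the same genes, for the introns that met the other conditions but lay below the fold, and for the gene counts of the host genes. Horizontal lines are means and error bars SD (n = 3). Every *brr2a*-2 library lies above every Col library in the first 3 panels, and the genotypes overlap in the last.

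Most of the introns were thinly covered. The *brr2a*-2 sum was between 20 and 1943 counts with a median of 33, and 629 of the introns had fewer than 40. The median Col sum was 9. The log2 ratio of the sums, scaled to the gene counts of the libraries and with 0.5 added to each sum, had a median of 2.05 and quartiles of 1.85 and 2.34. The *brr2a*-2 sum was less than 4 times the Col sum in 623 introns and at least 6 times in 101. The share of an intron is given as its count over that of its gene. The 2 were counted separately and not scaled to length, so that the share is not a level of retention. The introns had a median share of 1.70% in *brr2a*-2 and 0.42% in Col. In *brr2a*-2, 37 exceeded 10%, the highest being 21.6%.

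Single libraries carried part of the gain. Every *brr2a*-2 library lay above every Col library in CPM in 943 of the 1074 introns, where the background was 33.8% of the 13933 introns that met all other conditions. The rule used the same counts, so that nothing is read from that difference. In the remaining 131 the genotypes overlapped, and in 251 introns a single library held more than 50% of the scaled *brr2a*-2 counts. At least 1 read was present in all 3 *brr2a*-2 libraries for 1067 introns.

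**Figure D2:**
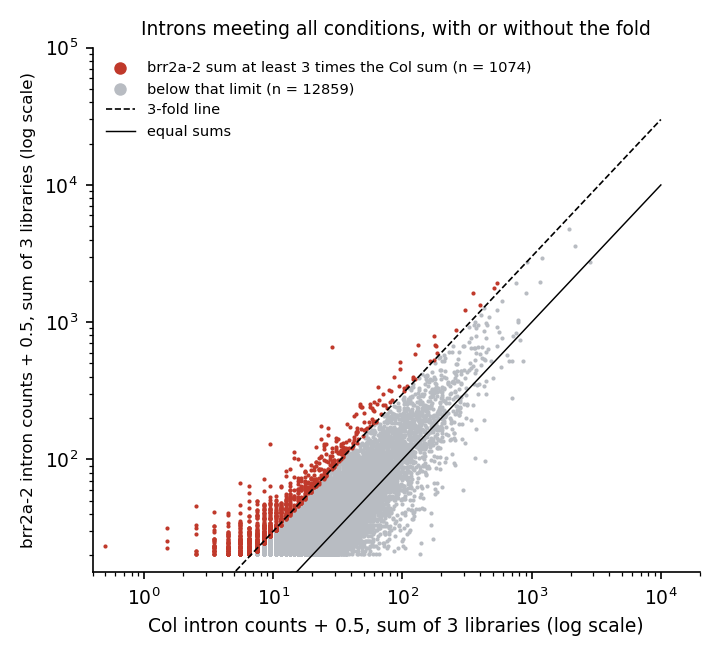
Summed intron counts of the 3 *brr2a*-2 libraries (vertical) against those of the 3 Col libraries (horizontal), both with 0.5 added and on log scales, for the 13933 introns that met every condition apart from the fold. Red points are the 1074 introns gaining reads, which lie close to or above the dashed 3-fold line by construction, and 629 of them have fewer than 40 *brr2a*-2 counts.

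Among the 10 introns with the largest ratios, 1 had far more reads than the rest. Intron 9 of *PGRL1A* (AT4G22890), a gene for a thylakoid protein of cyclic electron flow, had 263, 267 and 125 counts in *brr2a*-2 and 11, 14 and 3 in Col. Its count came to 5.11% of that of the gene in *brr2a*-2 and 0.198% in Col. The level was 10.5 ± 3.43 CPM in *brr2a*-2 and 0.389 ± 0.246 in Col (SD, n = 3 each). This intron of 72 bp lies in the 3′ untranslated region. Intron 8 of the same gene had 188, 124 and 78 counts in *brr2a*-2 and 32, 51 and 50 in Col, and intron 1 fell just outside the rule with a sum ratio of 2.98. The count of the gene was 206 ± 22.7 CPM in *brr2a*-2 and 201 ± 34.9 in Col.

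In AT1G59990 the last of 7 introns was the single one to meet the rule. Intron 7 had 46, 48 and 35 counts in *brr2a*-2 and 3 in each Col library. Its count came to 7.64% of that of the gene in *brr2a*-2 and 0.534% in Col. The TAIR10.1 annotation also lists this intron as exonic in another isoform. Intron 6 beside it had 4, 10 and 4 counts in *brr2a*-2 and 0, 4 and 0 in Col, and introns 1 to 5 had at most 9 counts in any library. The neighbours thus had few counts in either genotype.

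AT1G24360 held the single intron at 0 in all Col libraries. Intron 6 had 11, 7 and 5 counts in *brr2a*-2, at least 8.81-fold higher in CPM than Col when Col is set to the floor of 3 counts over the group. Intron 5, upstream of it, had 6, 7 and 4 counts in *brr2a*-2 and 1, 3 and 1 in Col. Intron 7, downstream, had 11, 6 and 6 in *brr2a*-2 and 10, 7 and 10 in Col, so that the genotypes overlapped there.

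Other large ratios were found in genes of unrelated roles, all with few counts. Intron 5 of AT4G12830, which encodes a hydrolase of the alpha/beta family, had 19, 9 and 3 counts in *brr2a*-2 and 0, 1 and 0 in Col. Intron 1 of AT1G21790 had 15, 10 and 20 counts in *brr2a*-2 and 2, 0 and 0 in Col. Its count came to 14.6% of that of the gene in *brr2a*-2. Intron 2 of AT2G16790, whose sequence is annotated as exonic in another isoform, had 12, 8 and 5 counts in *brr2a*-2 and 0, 0 and 1 in Col. AT1G21790 and AT2G16790 had 308 and 152 gene counts in all in *brr2a*-2, so that few intron reads made a large share.

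The list of large ratios also held *EMF1*, *SYP132* and *BIM2*. Intron 7 of *EMF1*, a repressor of flowering that acts with Polycomb proteins, had 30, 25 and 12 counts in *brr2a*-2 and 1, 1 and 3 in Col, and it too is annotated as exonic in another isoform. Intron 7 of *SYP132*, a syntaxin of the plasma membrane, had 7, 18 and 6 counts in *brr2a*-2 and 1, 1 and 0 in Col. Intron 2 of *BIM2*, a bHLH factor of brassinosteroid signalling, had 12, 1 and 9 counts in *brr2a*-2 and 0, 0 and 1 in Col. The genotypes overlapped in *BIM2*, where the second *brr2a*-2 library had no more reads than the third Col library.

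The 10 introns with the largest *brr2a*-2 sums lay in *GME*, *PSAK*, *LHCB3*, *PSAO*, *RCA*, *AVP1*, AT2G13360 and *GGT1*. Intron 2 of *LHCB3* had 507, 768 and 368 counts in *brr2a*-2 and 57, 197 and 94 in Col, or 26.7 ± 10.3 CPM in *brr2a*-2 and 5.27 ± 3.60 CPM in Col (SD, n = 3 each). Its count came to 3.50% of that of the gene in *brr2a*-2 and 0.698% in Col. Intron 1 of *LHCB3* had 147, 149 and 135 counts in *brr2a*-2 and 41, 68 and 61 in Col, higher in every *brr2a*-2 library but below the 3-fold limit. The counts of the gene overlapped, with 763 ± 72.6 CPM in *brr2a*-2 and 728 ± 275 in Col.

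The largest sum was in the 700 bp intron 1 of *GME*, in the 5′ untranslated region of a gene of ascorbate synthesis, with 935, 595 and 413 counts in *brr2a*-2 and 101, 256 and 182 in Col. Introns 4, 5 and 6 of *GME* gained reads as well, while introns 2 and 3 lay below the limit. *PSAK* and *PSAO*, which encode subunits of photosystem I, each had 2 introns and 1 that gained reads. Intron 2 of *PSAK* had 766, 564 and 456 counts in *brr2a*-2 and 76, 197 and 236 in Col. Both introns of *PSAN*, another photosystem I gene, met the rule. Intron 7 of *AVP1*, which encodes a proton pump of the vacuole driven by pyrophosphate, had 476, 224 and 174 counts in *brr2a*-2 and 82, 88 and 91 in Col.

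The *RBCS1A* gene, which encodes a small subunit of RuBisCO, showed how close to the limit an intron could fall. Intron 1 met the rule with 251, 126 and 137 counts in *brr2a*-2 and 9, 37 and 49 in Col. Intron 2 had more reads, 1263, 975 and 519 in *brr2a*-2 and 191, 396 and 336 in Col, and was left out with a sum ratio of 2.99. The small subunit genes are similar copies, so that reads may be split between them by the alignment. Their introns can differ, and intron 2 has 136 bp in *RBCS1A* and 170 bp in *RBCS3B*. Just inside the limit, at a ratio of 3.00, were for example intron 4 of AT1G01630 with 27 counts in *brr2a*-2 and 9 in Col and intron 3 of AT1G07700 with 48 in *brr2a*-2 and 16 in Col. Just outside it was intron 2 of AT1G72640 with 332 in *brr2a*-2 and 111 in Col.

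A host gene usually had a single such intron. Of 835 genes, 680 (81.4%) had 1, 108 had 2, 27 had 3 and 20 had 4 or more. The genes had a median of 7 introns, but not all of these could meet the rule. Of their 5227 other introns, 3340 had at least 20 counts over both genotypes, and the rest lay below the count floor. Another intron met every condition but the fold in 661 host genes with annotated positions. The part that the floor had in the number per gene was not tested. All introns met the rule in 7 genes, among them *PRK*, which encodes the phosphoribulokinase of the Calvin-Benson cycle and has 4 introns. Where a gene had several, 104 of their 381 pairs (27.3%) were next to each other, and 20.6% of all intron pairs of those genes were adjacent.

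The genes with 6 were *GGT1*, *FBP*, *HDR* and AT5G57655. *HDR* encodes the last enzyme of the plastid isoprenoid pathway, and AT5G57655 a protein of the xylose isomerase family. In *HDR*, intron 5 had 51, 30 and 20 counts in *brr2a*-2 and 7, 3 and 4 in Col, and intron 4 before it had 13, 3 and 2 in *brr2a*-2 and 4, 2 and 4 in Col, where the genotypes overlapped. In *GAPB*, 5 of 8 introns met the rule. Intron 3 of *GAPB* had 74, 52 and 42 counts in *brr2a*-2 and 2, 17 and 7 in Col, and intron 4 had 75, 59 and 18 in *brr2a*-2 and 7, 38 and 15 in Col. Intron 4 thus had more counts than intron 3 in Col and about as many in *brr2a*-2, and its genotypes overlapped in CPM. The scaled gene counts themselves were higher in *brr2a*-2 by a log2 ratio of 0.71 in *HDR*, 0.69 in *FBP* and 0.50 in *GGT1*. The intron ratios of these genes were not corrected for this, and its part in them was not tested.

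**Figure D3:**
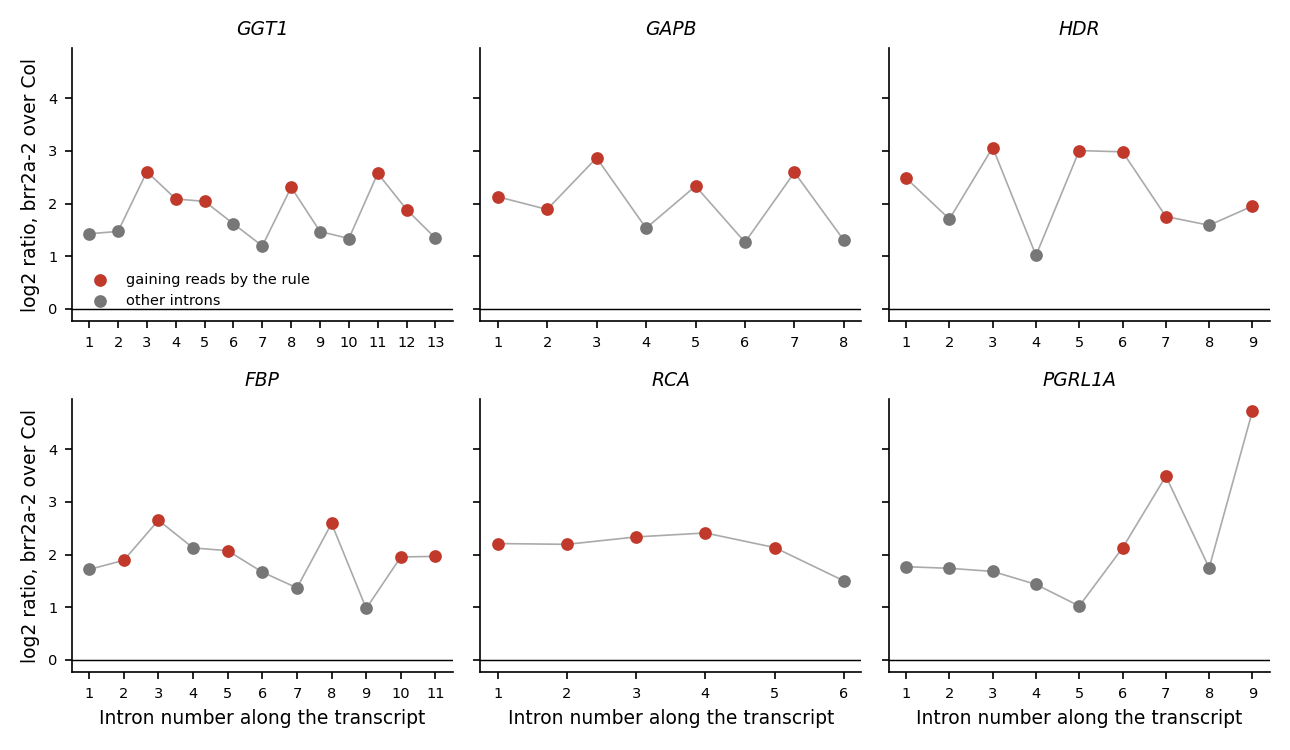
log2 ratio of depth-scaled intron sums, *brr2a*-2 over Col, for each intron in order along the transcript of *GGT1*, *GAPB*, *HDR*, *FBP*, *RCA* and *PGRL1A*. Red points met the rule and grey points did not, and 0 marks equal sums. All introns of the 6 genes lie above 0, with intron 9 of *PGRL1A* highest at 4.72.

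Neighbouring introns were higher in *brr2a*-2 too. Neighbours that themselves met the rule are not counted among them, which keeps most ratios of these sets under 3-fold. Among introns with at least 20 counts that were not selected themselves, the 1068 next to an intron gaining reads had a median log2 ratio of 0.83 with quartiles of 0.41 and 1.24. The 2272 further away in the same genes had a median of 0.70, and the 22389 introns of genes without a selected intron a median of 0.41. The *brr2a*-2 sum was at least 2 times the Col sum in 28.9%, 21.6% and 13.0% of these 3 sets. The raw sum of the neighbour was lower in *brr2a*-2 than in Col in 166 of 1068 cases (15.5%), and 23 reached 3-fold without meeting the other conditions. The host genes had a median log2 ratio of 0.17 in their gene counts, and genes with eligible introns but no selected one a median of -0.07. After subtraction of the log2 ratio of each gene, the medians of the 3 sets were 0.64, 0.53 and 0.49.

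**Figure D4:**
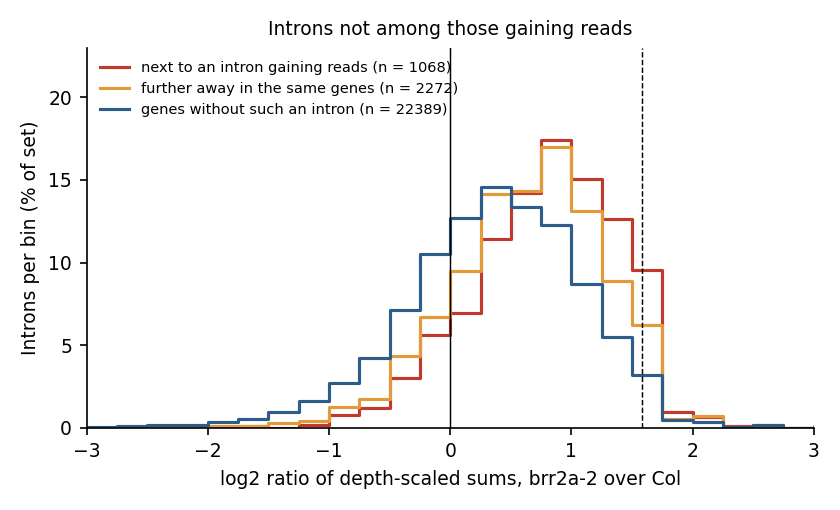
Distribution of the log2 ratio of depth-scaled sums, *brr2a*-2 over Col, in bins of 0.25 and shown between -3 and 3, for introns with at least 20 counts next to an intron gaining reads (red, n = 1068), further away in the same genes (orange, n = 2272) and in genes without one (blue, n = 22389). The medians are 0.83, 0.70 and 0.41, and the dashed line marks a 3-fold ratio.

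Features that the rule did not use were read from TAIR10.1 for 1041 of the 1074 introns, whose genes have equal intron numbers in table and annotation, and for 12470 introns that met every other condition but lay below the fold. The introns gaining reads were short. Their median length was 91 bp (quartiles 81 and 113) against 120 bp (89 and 269) in the others, 64.6% were under 100 bp against 38.5%, and 15.5% were 150 bp or longer against 42.8%. Over all 110935 introns with a position the median was 100 bp, 49.95% were under 100 bp and 27.9% were 150 bp or longer. The others were thus longer than introns at large. The share of introns that gained reads fell with length, with 31 of 149 (20.8%) under 70 bp, 16.1% at 70 to 79 bp, 9.10% at 100 to 119 bp and 5 of 834 (0.60%) at 500 bp or more. The median log2 ratio of all introns that met the other conditions fell with length as well, with 1.22 under 70 bp and 0.40 at 500 bp or more. These conditions set a count floor on the *brr2a*-2 sum but not on the Col sum, which can raise the ratios of thinly covered introns. The median Col sum was 22 under 70 bp and 48 at 500 bp or more. The part that this floor had in the fall of the share and of the ratio with length was not tested.

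Length and the read level in Col moved together. Introns below 0.25% of the Col count of the gene had a median length of 90 bp among those gaining reads and 93 bp among the others, whereas between 2% and 5% the medians were 94 and 212 bp. The part that the Col level had in the length difference was not tested further. Within the same gene, introns gaining reads were shorter in the median than the other introns with at least 20 counts in 544 of 773 genes. The share varied less with the level of the gene, and 11.0%, 7.6%, 6.7% and 7.3% of introns gained reads in the quartiles of genes by Col count, from the lowest to the highest. By chromosome the share was between 6.76% and 8.26%.

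**Figure D5:**
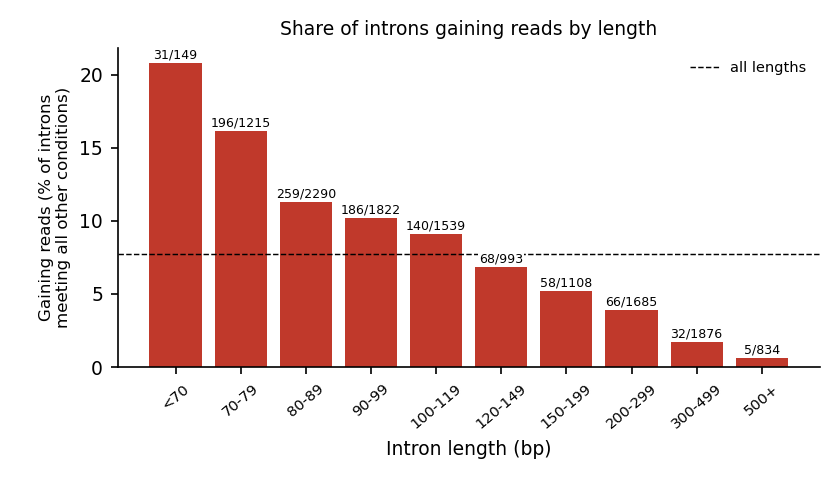
Share of introns gaining reads among those that met every condition apart from the fold, by intron length in bp. The numbers above the bars are introns gaining reads over all introns of the class, the dashed line is the share over all lengths, and the bars fall from 20.8% under 70 bp to 0.60% at 500 bp or more.

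At the 5′ splice site the introns gaining reads were closer to the consensus. A score of the last 3 exon and first 6 intron bases, in bits against equal base shares and built from all GT-AG introns, had a median of 7.77 in the introns gaining reads and 7.25 in the others. The difference was found under 100 bp (7.73 and 7.17), at 100 to 149 bp (7.81 and 7.07) and at 150 bp or more (7.83 and 7.38). Within genes the introns gaining reads scored higher than the other introns with at least 20 counts in 484 of 773 genes (62.6%). In the introns below 0.25% of the Col count of the gene the medians lay closer, at 7.70 in the 322 introns gaining reads and 7.54 in the 750 others. Position -2 of the exon was A in 72.7% of them against 63.9%, and position 5 of the intron was G in 59.8% against 53.3%, and in 57.1% against 55.1% in that lowest class of Col share.

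The 3′ splice site differed the other way, with a median score of 7.88 in the introns gaining reads and 8.22 in the others, over the last 15 bases and the first exon base. By length the medians were 7.88 and 8.05 under 100 bp, 7.66 and 7.99 at 100 to 149 bp, and 8.35 and 8.44 at 150 bp or more. Within genes the 3′ score was compared with that of the other introns with at least 20 counts. It was the higher in 380 of 773 genes (49.2%) and the lower in 393, with a median difference of -0.09. Against other introns that met every condition but the fold, it was the higher in 313 of 661 genes and the lower in 348. The median difference was then -0.24, so that the result depended on the introns compared. Other sequence features differed less. The GC content had medians of 32.9% and 33.2%, and 99.5% and 98.9% of the introns had GT and AG ends. Any of 4 branch point motifs, namely CTAAC or its variant CTGAC, or the forms ending in T, which are CTAAT or its variant CTGAT, was searched on the strand of the gene between 60 and 9 bases before the end of the intron and was found in 28.8% of introns gaining reads, 28.0% of the others and 27.8% of all 110935 introns with a position. Some introns begin with ATATCC or else with GTATCC, as in the minor U12 class. These numbered 3 (0.29%) among those gaining reads and 67 (0.54%) among the others. Over all introns with a position the share was 0.39%.

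*GGT1* shows the 5′ splice sites within a gene. It is shown because 6 of its 13 introns met the rule and 7 did not, and it was chosen after its values were seen. Each sequence is the last 3 exon bases in lower case and the first 6 intron bases in capitals, with introns 3 to 10 in order and then 11 to 13.
GGT1 intron 3, gaining reads: cagGTATGT
GGT1 intron 4, gaining reads: tagGTATGA
GGT1 intron 5, gaining reads: aagGTGATT
GGT1 intron 6: gggGTAATG
GGT1 intron 7: acaGTAAGC
GGT1 intron 8, gaining reads: aagGTTAGC
GGT1 intron 9: aggGTCTGT
GGT1 intron 10: tttGTAAGT
GGT1 intron 11, gaining reads: aagGTATAT
GGT1 intron 12, gaining reads: aagGTAAAA
GGT1 intron 13: aggGTAAAG

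Of these 11 introns, the 6 that gained reads had 5′ scores between 8.27 and 10.9 and the 5 others between 4.27 and 5.74. Introns 1 and 2 did not meet the rule and had high scores of 9.07 and 9.01, and they are the longest of the gene at 268 and 235 bp. Intron 11 had 273, 260 and 154 counts in *brr2a*-2 and 14, 67 and 51 in Col, and intron 10 before it had 302, 267 and 151 in *brr2a*-2 and 106, 123 and 98 in Col. The 2 *GGT1* introns reached like levels in *brr2a*-2 and differed in Col. Intron 7 had 78, 98 and 32 counts in *brr2a*-2 and 15, 63 and 26 in Col, where the genotypes overlapped in CPM. *FBP*, which also had 6 introns that met the rule, showed the opposite order. Its introns 2, 3, 5, 8, 10 and 11, which met the rule, had 5′ scores of -4.84, 6.53, 5.43, 7.99, 6.71 and 5.04, and introns 1, 4, 6, 7 and 9, which did not meet it, had scores between 4.69 and 9.63, of which 4 were above 7.99.

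By position, 999 of the 1041 introns lay between coding exons, 23 (2.21%) in the 5′ and 19 (1.82%) in the 3′ untranslated region, and among the other introns 5.83% and 1.26% lay in those regions. The first intron of a transcript made up 12.5% of the introns gaining reads and 21.3% of the others, and the last intron 19.0% and 18.7%. Of all introns with a position, 18.3% were first and 18.3% were last. Left in the transcript, 878 of the 999 coding introns (87.9%) would bring a stop codon into the reading frame, 93 would shift the frame without a stop inside the intron, and 28 (2.80%) would do neither. A stop codon would come in with 92.3% of the other coding introns and 89.4% of the coding introns in the annotation, and 2.25% of the others would do neither. Under 100 bp the shares that would do neither were 3.83% in the introns gaining reads and 4.42% in the others. In 43 introns (4.13%) the sequence is annotated as exonic in another isoform, against 7.04% of the others. Another annotated gene overlaps 5 (0.48%), against 1.62% of the others and 2.00% of all introns with a position. The reads of such a gene cannot be told apart, since no source gives the strand setting used in counting.

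Gene lists were counted against the 7.71% of all introns that met the other conditions. Genes with no intron that met these conditions could not be counted. Such introns were present in 5 of 15 antenna genes, 4 of 4 small subunit genes and 13 of 18 splicing regulators. They were present in 2 of 6 genes of *BRR2a* and its U5 partners and in 7 of 16 flowering and clock genes. Among the light-harvesting antenna genes 2 of 13 introns gained reads, in *LHCB3* and *LHCB5*, and among the RuBisCO small subunits 2 of 8. Among SR proteins and related splicing regulators 3 of 37 did, in *SR30*, *SR45* and *PTB3*, a share near that of all introns. Among *BRR2a* and its U5 partners 1 of 4 did, intron 7 of AT1G06220, the homologue of the GTPase Snu114, with 6, 8 and 7 counts in *brr2a*-2 and 2, 1 and 1 in Col. Of 34 introns in flowering and clock genes 1 did, intron 10 of *GIGANTEA*, with 6, 7 and 11 counts in *brr2a*-2 and 2, 4 and 2 in Col. The study's splicing assays of *FLC*, *MAF1*, *AG* and *SEP3* were left out of the last list. That list held 7 genes, chosen on these samples, in which the study checked retained introns, and 6 could be counted. Of their introns 15 of 28 met the rule, and 10 of 28 without the first Col library. Without that library, 3 of 13 antenna introns, 1 of 8 RuBisCO introns and 2 of 26 introns of splicing regulators met the rule. In *BRR2a* and its U5 partners 1 of 4 did, and in flowering and clock genes 0 of 34. The share of all introns was then 14.9%.

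A further 3 lists were drawn up after the values had been seen and carry no test. In photorespiration 25 of 76 introns (32.9%) gained reads, in 7 of 13 genes, among them both glutamate:glyoxylate aminotransferases and the mitochondrial serine hydroxymethyltransferase *SHM1*. In AT2G13360, the serine:glyoxylate aminotransferase, the intron listed first in the table had 357, 287 and 150 counts in *brr2a*-2 and 39, 91 and 45 in Col. In the Calvin-Benson cycle 21 of 50 (42.0%) did, in 7 of 14 genes, and among photosystem I subunits 7 of 17 (41.2%) in 5 of 7 genes. *RCA*, which encodes the activase of RuBisCO, had 5 of 6 introns. Its intron 1 had 599, 393 and 225 counts in *brr2a*-2 and 36, 171 and 95 in Col, and intron 6, with 1644, 1413 and 1693 in *brr2a*-2 and 359, 858 and 711 in Col, lay below the limit. The gene counts of these 3 lists had median log2 ratios of -0.18, 0.08 and -0.06 over all genes, and of 0.50, 0.32 and -0.06 over the host genes, so that in photorespiration and the Calvin-Benson cycle the host genes were themselves higher in *brr2a*-2. The first Col library, which stands apart in antenna genes, bears on these counts. Without it, a comparison added after the data had been seen, 22 of 88 introns in photorespiration, 15 of 50 in the Calvin-Benson cycle and 2 of 17 (11.8%) in photosystem I met the rule, where 14.9% of all introns did, so that the share of photosystem I fell below that of all introns. Its part in the counts was not tested further.

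A fit across all introns with edgeR's quasi-likelihood test measured each intron beyond the fold change of its gene. Libraries were scaled by their intron counts with TMM, so that a gain shared by most introns was also taken out. The median log2 fold change of all tested introns was -0.09. Calls needed an adjusted p below 0.05 and a log2 difference of 1 or more. Of 17214 introns, 33 (0.192%) were called higher in *brr2a*-2 and 10 lower. Only 347 of the 1074 introns had enough reads to be tested, and 3 of them were among the 33. These were intron 9 of *PGRL1A* (log2 fold change 4.05, adjusted p = 0.0120), intron 7 of AT1G59990 (3.16, adjusted p = 0.0200) and intron 7 of *TL29* (AT4G09010), a gene of a thylakoid lumen protein related to ascorbate peroxidases (2.38, adjusted p = 0.0386). The *TL29* intron had 73, 83 and 56 counts in *brr2a*-2 and 19, 32 and 17 in Col. At an unadjusted p under 0.05, 195 of the 347 and 965 of all introns were higher. The rule used the same counts, so that these numbers say nothing further about the selected introns as a set. The number of calls varied with the libraries used. Leaving out the first *brr2a*-2 library left 0 calls, the second 1 and the last 33, and leaving out the first Col library left 37, the second 5 and the last 20.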

How the data were processed

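Per the study's methods and labels, the authors removed ribosomal RNA, trimmed the reads with Trimmomatic 0.32, aligned them to TAIR10 with TopHat2 and counted them with HTSeq. The deposited files hold raw counts per gene and per intron of the first isoform, without normalization, and the strand setting is not given in the sources used here. Intron numbers of the files were taken to run along the chromosome, since on minus-strand genes counts correlated with length in that order (mean rho 0.34 across introns of 2792 genes) and not along the transcript (-0.04). Intron lengths listed by the study match the same order. Primers of the study are numbered along the transcript, so that in minus-strand genes they lie in other introns than the rows of the same number.

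Counts were summed per genotype and scaled by gene totals. Introns were fitted with edgeR 4.0.16 (quasi-likelihood, TMM of the intron counts, minimum count of 10, Benjamini-Hochberg) in R 4.3.3. The offset also held the log2 fold change of the gene (prior count of 2). Alternatives were DESeq2 1.42.0, other filters and scalings, other limits of the rule, a replicate block and each library left out. Sequences and positions came from RefSeq TAIR10.1 for genes with equal intron numbers. The selected introns and gene lists were chosen with earlier results of these data known. Named introns are the 10 with the largest ratio, the 10 with the largest *brr2a*-2 sum and those of the 6 genes with the most. Of 9 genes tied at 5, the first 2 by gene identifier were taken. Also named are those in lists or in the study's checks of retained introns, and 3 on either side of the limit, with their neighbours. *GME* introns 4 to 6, *PRK*, *RCA* introns, *TL29* and the lists of photorespiration, Calvin-Benson and photosystem I genes were named after their values were seen.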

Additional observations from a re-analysis of the deposited data

How the results depend on the processing

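The number of introns that met the rule followed its limits. It was 3513 at a fold of at least 2, 451 at 4, 2487 with a *brr2a*-2 sum of at least 10, 445 with at least 40 and 1613 with no limit on the gene, and 936 to 1978 when each library was left out in turn. With counts scaled to equal gene totals before the rule, 1459 introns met it, 936 of them shared. On raw sums the median log2 ratios were 1.85 for the selected introns, 0.63 for their neighbours and -0.0308 for the host genes, which reverses the sign of the last. In the edgeR fit, 81 introns were higher with DESeq2, 189 without a filter and 80 without the correction for the gene, and 0 to 37 with a library left out. Selected introns among the calls numbered 5 without TMM, 11 with DESeq2, 37 without a filter, 8 without the correction and 0 to 7 with a library left out. The replicate block gave 48 calls, 5 of them selected introns, but same-numbered libraries correlated at -0.024, 0.263 and 0.112 in their deviations, so the numbers were not taken as pairs. The causes of these differences were not tested. With a median of 33 counts in *brr2a*-2 and 9 in Col, single introns limit what can be said, and intervals for them would cover counting error only.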
